A study of Mus musculus with 6 samples.

Results

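The genes described here are 32 mouse genes that take glucose through glycolysis or into and out of glycogen: glucose and lactate transporters, the enzymes between hexokinase and lactate dehydrogenase, the regulators of phosphofructokinase and pyruvate dehydrogenase, and the glycogen enzymes. They were given as a list of names, not chosen by a threshold on their values, and all 32 were among the 18857 genes with reads in at least 1 library. PolyA RNA of KH2 embryonic stem cells (ESCs) of a C57BL/6 x 129 background was sequenced in 6 libraries, 1 per group. KH2 wild-type cells were untreated or given PD0325901, an inhibitor of the kinase Mek, for 48 hours. The other 4 libraries carried the genotype iErk1; Erk KO, also on KH2 cells, and differed in doxycycline (Dox): 1 culture was kept on Dox, and the others had been off it for 48 hours, for 96 hours, or for 96 hours with PD0325901 during the final 48. The labels give no dose of either drug and do not say which Erk gene was deleted or whether the line is a clone. The design text names 3 comparisons: the inhibitor in wild-type cells, the inhibitor in Erk KO cells, and Erk loss, as 48 hours without Dox against Dox. Comparisons of 96 hours without Dox with Dox and with 48 hours, and of the line with Dox against KH2, were added because the groups imply them, and they share libraries with each other and with the named comparisons.

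Glycolysis splits glucose into pyruvate in the cytosol, and proliferating cells, ESCs among them, turn much of that pyruvate into lactate. Many of its genes are known targets of the hypoxia-inducible factor Hif1 and of Myc, and most steps are served by several isozymes with different tissue ranges. Mek phosphorylates the Erk kinases, in the pathway through which Fgf4 acts on ESCs.

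Values are RPKM, which divides reads by gene length in kilobases and by the library total in units of 1e6 reads, so levels can be compared between genes. Where 6 levels are listed, they stand in this order: KH2, inhibitor-treated KH2, then the iErk1; Erk KO line on Dox, 48 hours off Dox, 96 hours off Dox, and 96 hours off Dox plus inhibitor. The iErk1; Erk KO cells are called the line. Levels, percents of KH2 and ranks of libraries use library totals. TMM scaling, which centres on the bulk of genes, multiplied the totals by factors from 0.878 (48 hours off Dox) to 1.19 (treated KH2). Orders between KH2 and the line can therefore change with the scaling. With 1 library per group nothing measures the spread between cultures: folds compare libraries, and their 95% intervals cover counting error only. To pass the 2-fold rule, a gene needed 20 or more reads summed over the pair, an RPKM of 1 or more in the library where it was higher, a log2 ratio (computed after adding 0.5 to each RPKM) of 1 or more in either direction, and an interval without 1. A 1.5-fold rule differed in the fold alone. Folds given with intervals are ratios of read shares without the added 0.5, so at low levels they are larger than the log2 ratios imply. For Pygl in the line with Dox against KH2, the values are 40.9-fold lower and a log2 ratio of −3.75.

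Library totals ran from 9.05 to 9.95 times 1e6 reads. Mapk3, which encodes Erk1, stood at 56.4, 52.8, 14.8, 6.86, 6.75 and 9.18 RPKM, lowest in the libraries without Dox. The ESC markers were present in every library, with a summed level of 4462, 3934, 3054, 3495, 3563 and 3481 RPKM over 12 genes. The summed level of 26 fibroblast markers, which can come from feeder or differentiated cells in ESC culture, was 1098, 4487, 656, 806, 797 and 2008 RPKM, with no marker at 0 reads in any library, so it was highest in the inhibitor libraries of both cell states. In bulk RNA more cells of a type and more RNA per cell cannot be told apart. Only uniquely mapped reads were counted, which bears on genes with processed pseudogenes: reads covered 25.4% to 26.3% of the Gapdh transcript and 38.6% to 41.0% of Eno1, so the levels of both are not comparable with those of other genes. Counts were made per gene, so for Mapk3 they do not separate a deleted part or a transgene from the rest.

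**Figure D1:**
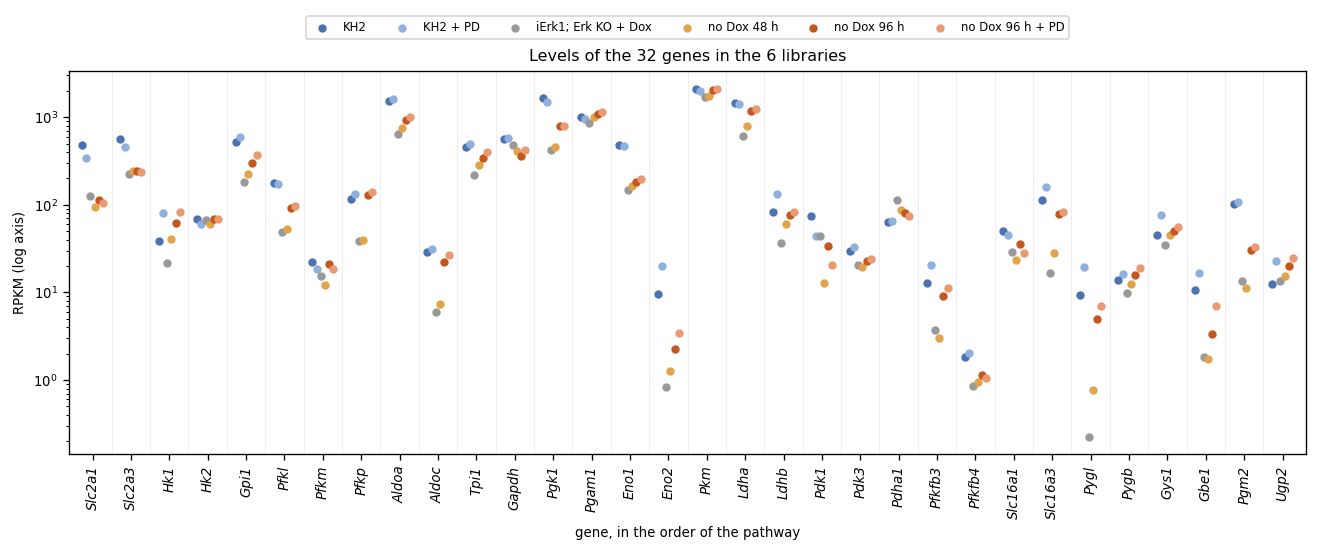
RPKM on a log axis of the 32 genes in the order of the pathway, with 1 point per library. The KH2 libraries were highest for most genes, and the line with Dox was lowest for 20 of the 32, with Pygl spanning the widest range.

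The levels spanned more than 3 orders of magnitude. Pkm, the pyruvate kinase gene, was the most abundant member in every library at 2113, 1987, 1717, 1756, 2055 and 2092 RPKM, and its highest library was 1.23 times its lowest. Hk2, a hexokinase gene that traps glucose as glucose 6-phosphate, had the narrowest range of the 32, at 68.1, 60.4, 66.5, 60.6, 69.6 and 69.6 RPKM. By library, 15 members were highest in KH2 with PD0325901, 10 in KH2, 6 in the 96 hour library with PD0325901 and 1 in the line with Dox. The line with Dox held the lowest level of 20 members and the 48 hour library that of 8.

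Slc2a1 and Slc2a3 encode the glucose transporters Glut1 and Glut3. Slc2a1 stood at 484, 345, 127, 93.8, 112 and 105 RPKM and Slc2a3 at 565, 453, 224, 242, 245 and 239 RPKM. Both were high in the KH2 libraries and low in all 4 libraries of the line, with or without Dox. Hk1, the other hexokinase of the list, stood at 38.4, 80.4, 21.4, 40.9, 62.6 and 83.4 RPKM, so it was highest in the inhibitor libraries and lowest with Dox. Gpi1, the isomerase that makes fructose 6-phosphate, had 519.6, 600.4, 182, 227, 303 and 366 RPKM, and within the line each library stood above the one listed before it.

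Phosphofructokinase commits sugar to glycolysis. Its liver-type gene Pfkl had 178, 173, 49.03, 52.9, 90.8 and 97.1 RPKM, its platelet-type gene Pfkp 117, 134, 38.2, 39.2, 128 and 142 RPKM and its muscle-type gene Pfkm 22.1, 18.5, 15.3, 12.2, 21.3 and 18.7 RPKM. At 96 hours without Dox, Pfkp stood at 109.8% of KH2 and Pfkl at 51.1%. Pfkfb3 and Pfkfb4 make fructose 2,6-bisphosphate, the activator of that step. Pfkfb3 had 12.8, 20.4, 3.72, 3.03, 8.99 and 11.1 RPKM, while Pfkfb4 had 1.82, 2.03, 0.850, 0.946, 1.13 and 1.05 RPKM, the lowest median of the 32 genes.

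The aldolase gene Aldoa had 1529.5, 1613, 637, 743, 936 and 993 RPKM and its paralog Aldoc 28.6, 30.9, 5.93, 7.39, 22.1 and 26.9 RPKM. Both were lowest with Dox, and at 96 hours Aldoc stood at 77.5% of KH2 and Aldoa at 61.2%. The triose isomerase gene Tpi1 had 459, 497, 219, 285, 345 and 403 RPKM, and Pgk1, the phosphoglycerate kinase that makes the first ATP of the pathway, 1665, 1482, 426, 453, 798 and 801 RPKM. Pgk1 in the line with Dox stood at 25.6% of KH2, and at 47.9% at 96 hours. Gapdh had 561, 574, 477, 408, 365 and 422 RPKM and the mutase gene Pgam1 1013, 964, 856, 995, 1100.3 and 1133 RPKM. Neither passed a fold rule in any of the 6 comparisons.

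Among the enolases, Eno1 had 487, 464, 149, 162, 182 and 197 RPKM and the neuronal form Eno2 9.61, 20.01, 0.840, 1.28, 2.27 and 3.41 RPKM. Every library of the line was below both KH2 libraries for each. Ldha, whose enzyme favours lactate formation, had 1467, 1402, 612, 801, 1182 and 1239 RPKM, and Ldhb, whose enzyme favours the reverse, 83.3, 133, 36.7, 60.8, 76.7 and 81.8 RPKM. With library totals, Ldha was higher at 96 hours than with Dox and below KH2 throughout the line. With TMM scaling Ldha was not below KH2 in the 96 hour library with PD0325901. Ldhb was highest in treated KH2 cells. Lactate leaves through the monocarboxylate transporters Slc16a1, at 50.6, 45.4, 28.7, 23.4, 35.4 and 28.3 RPKM, and Slc16a3, at 113, 160.0, 16.6, 27.9, 78.4 and 82.2 RPKM. Slc16a3 had the wider range, and was lowest with Dox.

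Pyruvate enters mitochondria for the pyruvate dehydrogenase complex, whose subunit gene Pdha1 had 63.8, 66.1, 114, 86.9, 80.5 and 74.2 RPKM, highest in the line with Dox. The kinases Pdk1 and Pdk3 switch the complex off. Pdk1 had 74.1, 44.1, 44.6, 12.9, 33.4 and 20.8 RPKM, lowest at 48 hours without Dox, and Pdk3 29.9, 32.7, 20.3, 19.4, 22.9 and 23.95 RPKM. Pdk1 was lower in the inhibitor library of each pair.

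Of the glycogen genes, the phosphorylase gene Pygl, which releases glucose from glycogen, had 9.24, 19.7, 0.226, 0.767, 5.02 and 6.92 RPKM, and its paralog Pygb 14.02, 16.03, 9.86, 12.4, 15.7 and 18.8 RPKM. Pgm2 (gene ID 72157, the phosphoglucomutase listed as Pgm1 in RefSeq) had 103, 107, 13.5, 11.2, 30.2 and 33.3 RPKM. In the line with Dox, Pygl stood at 2.45% of KH2, Pgm2 at 13.1% and Pygb at 70.3%. Ugp2, which makes UDP-glucose, had 12.4, 22.7, 13.5, 15.2, 19.9 and 24.6 RPKM, the synthase gene Gys1 45.5, 75.8, 34.4, 45.5, 50.5 and 55.8 RPKM and the branching enzyme gene Gbe1 10.6, 16.5, 1.81, 1.76, 3.36 and 7.05 RPKM. All these were highest in an inhibitor library.

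The engineered line with Dox was compared with KH2 cells to see where the Erk series started from. Of the 32 genes, 18 were lower in the line by the 2-fold rule and 0 higher, where 21.4% of 12421 genes tested were lower and 2.76% higher (24.2% either way). By the 1.5-fold rule 22 were lower and 1 was higher, against 38.7% and 8.61% of all genes. The members' median log2 ratio was −1.22, and that of all genes −0.37.

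The 5 largest folds were those of Pygl, Eno2, Pgm2, Slc16a3 and Gbe1. Pygl, with 237 reads in KH2 and 6 in the line, was 40.9-fold lower (95% interval 18.5 to 113). Pgm2 was 7.63-fold lower (95% interval 6.76 to 8.65) and Gbe1 5.85-fold lower (95% interval 4.33 to 8.04). The lactate exporter gene Slc16a3 was 6.82-fold lower (95% interval 6.13 to 7.60). Of the glucose transporter genes, Slc2a1 was 3.80-fold lower (95% interval 3.65 to 3.96) and Slc2a3 2.52-fold lower (95% interval 2.46 to 2.59). Among the enzymes, Eno2 was 11.4-fold lower (95% interval 7.31 to 18.8), Pgk1 3.91-fold lower (95% interval 3.81 to 4.01) and Pfkl 3.62-fold lower (95% interval 3.43 to 3.82). The other members lower by 2-fold were Gpi1, Pfkp, Aldoa, Aldoc, Tpi1, Eno1, Ldha, Ldhb and Pfkfb3, with log2 ratios between −2.18 and −1.07. Pdha1 was the member higher by 1.5-fold, at 1.79-fold higher (95% interval 1.68 to 1.90). Hk2 (−0.03), Gapdh (−0.23), Pgam1 (−0.24) and Pkm (−0.30) had log2 ratios that did not pass.

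Scaling mattered here. TMM scaling, which centres on the bulk of genes, shifted the log2 read ratios by 0.41, against −0.13 to 0.01 in the other 5 comparisons. Ratios of low levels, computed after adding 0.5, moved less, with Pygl going from −3.75 to −3.47. The share of higher genes among all 2-fold calls went from 11.4% to 41.5%. With it 13 members were lower by 2-fold, where 11.6% of genes were, and their median log2 ratio was −0.81. Slc2a3, Aldoa, Tpi1, Ldha and Ldhb no longer passed, Pdha1 passed as higher, and Hk2, Gapdh, Pgam1, Pkm and Gys1 turned from negative to positive ratios. With library totals, the summed fibroblast markers were 1.67 times lower in the line and the summed ESC markers 1.46 times lower. The ESC markers were not lower as a group. Of the 12, 6 had positive and 6 negative log2 ratios, with a median of 0.11 against −0.37 for all genes. By the same totals 17 of 19 tested non-glycolytic hypoxia genes were lower by 2-fold, where 21.4% of all genes were. Bnip3 was 9.02-fold lower (95% interval 8.23 to 9.90). The deposited tables of the 2 KH2 libraries have a gene symbol column and the other 4 do not, so a difference in handling and the cell line cannot be told apart.

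After 48 hours without Dox, the comparison named for Erk loss, few members differed. By the 2-fold rule 0 of the 30 members tested were higher and 1 was lower, where 2.77% of 11386 genes were higher and 2.13% lower (4.89% either way). Pygl and Pfkfb4 were under 1 RPKM in both libraries and not tested. By the 1.5-fold rule 3 members were higher and 1 lower, against 7.33% and 7.44% of all genes, and the members' median log2 ratio was 0.11 against −0.03.

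The lower gene was Pdk1, 3.45-fold lower (95% interval 3.16 to 3.77). The higher genes were Hk1, 1.91-fold higher (95% interval 1.76 to 2.08), Slc16a3, 1.68-fold higher (95% interval 1.48 to 1.91), and Ldhb, 1.66-fold higher (95% interval 1.47 to 1.86). Slc2a1 (log2 ratio −0.44), Pdha1 (−0.39), Ldha (0.39) and Gys1 (0.40) stayed within 1.5-fold. Of the regulators, Myc was 5.45-fold lower (95% interval 4.53 to 6.60), at 31.9 RPKM with Dox and 5.84 RPKM without. Txnip, which restrains glucose uptake, was 2.32-fold lower (95% interval 2.13 to 2.54), and Hif1a had a log2 ratio of −0.38. The summed fibroblast markers were 1.23 times higher than with Dox, with 0 of 24 tested higher and 1 lower by 2-fold.

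At 96 hours without Dox the pathway was higher than with Dox at many steps. By the 2-fold rule 9 members were higher and 0 lower, where 7.62% of 11804 genes were higher and 2.07% lower (9.68% either way). By the 1.5-fold rule 16 were higher and 0 lower, against 16.6% and 6.68%. The members' median log2 ratio was 0.60, and that of all genes 0.05.

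The glycogen phosphorylase gene Pygl, with 6 reads with Dox and 141 at 96 hours, was 22.2-fold higher (95% interval 9.95 to 61.6). Slc16a3 was 4.72-fold higher (95% interval 4.23 to 5.27) and Aldoc 3.73-fold higher (95% interval 2.97 to 4.72). Pfkp, the phosphofructokinase gene, was 3.35-fold higher (95% interval 3.16 to 3.56), and its activator's gene Pfkfb3 2.42-fold higher (95% interval 2.03 to 2.89). Hk1 was 2.92-fold higher (95% interval 2.70 to 3.16) and Pgm2 2.24-fold higher (95% interval 1.95 to 2.58). Eno2, with 60 reads against 21, and Ldhb passed at 2.70-fold and 2.09-fold, and neither passed with TMM scaling, which left 7 members higher. Just under 2-fold were Ldha, 1.93-fold higher (95% interval 1.89 to 1.98), Pgk1, 1.87-fold higher (95% interval 1.82 to 1.93), and Pfkl, 1.85-fold higher (95% interval 1.75 to 1.96). Gpi1, Tpi1, Pygb and Gbe1 also passed the 1.5-fold rule.

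Several members did not take part. The glucose transporter genes had log2 ratios of −0.18 for Slc2a1 and 0.13 for Slc2a3, the latter 0.02 with TMM scaling. Slc2a1 stood at 26.3% of the KH2 level with Dox and at 23.2% at 96 hours, while Slc16a3 went from 14.7% to 69.2% and Pfkp from 32.7% to 109.8%. Eno1 (0.29), Hk2 (0.07), Pkm (0.26), Gapdh (−0.39), Pdk1 (−0.41) and Pdha1 (−0.50) were within 1.5-fold with library totals. With TMM scaling Pdha1 was lower by more than 1.5-fold (−0.61), and Tpi1 and Pygb (0.54 each) fell short of 1.5-fold. TMM scaling shifted the log2 read ratios of this comparison by −0.11. Ratios of low levels, computed after adding 0.5, moved less, and that of Pygl was 2.93 either way. The share of higher genes among 2-fold calls was 78.7% with library totals, 70.7% with TMM and 68.6% with DESeq2 size factors.

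Between 48 and 96 hours, by the 2-fold rule, 7 members were higher at 96 than at 48 hours and 0 lower, where 4.55% of 11722 genes were higher and 0.469% lower (5.02% either way), and by the 1.5-fold rule 14 were higher and 0 lower, against 12.2% and 2.33%. Pygl was 6.54-fold higher (95% interval 4.12 to 10.9), Pfkp 3.27-fold higher (95% interval 3.09 to 3.47), Aldoc 2.996-fold higher (95% interval 2.44 to 3.71) and Pfkfb3 2.97-fold higher (95% interval 2.47 to 3.59). Slc16a3, Pgm2 and Pdk1 were the others. Pdk1, the gene that was lower at 48 hours, was 2.59-fold higher (95% interval 2.36 to 2.84) at 96 hours and so stood at 33.4 RPKM against 44.6 RPKM with Dox. Hk1 had log2 ratios of 0.92 for 48 hours against Dox and 0.61 for 96 against 48 hours, and Ldhb 0.72 and 0.33, and these steps were not tested against each other.

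**Figure D2:**
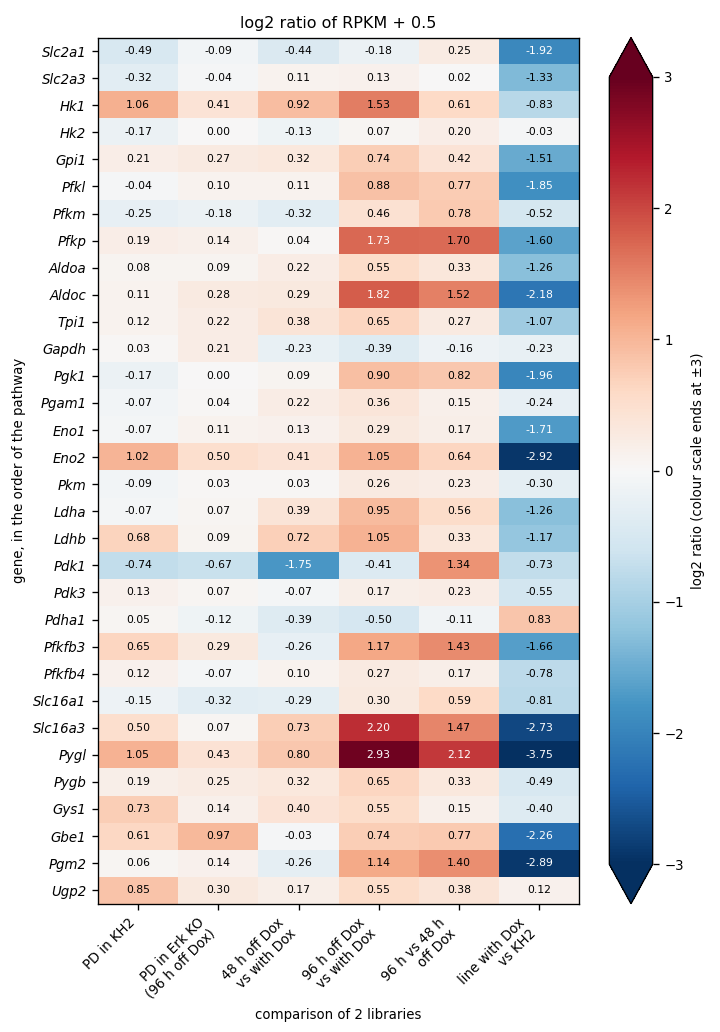
Log2 ratios of RPKM plus 0.5 for the 32 genes (rows) in the 6 comparisons of 2 libraries (columns), on a colour scale that ends at ±3. The column of the line against KH2 is mostly negative, and the columns of 96 hours without Dox are mostly positive, with Pygl at −3.75, 2.93 and 2.12.

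The start regions of the members were searched for letters known from the sites of Hif and Myc. RefSeq windows (GRCm38.p6) from 250 bases before to 50 after each transcript start matched 31 of the 32 genes by gene ID, with 45 windows. The letters ACGTG, 1 form of the core that Hif binds, were searched on both strands. The other form, GCGTG, was not searched. They were in 22 of 45 member windows (48.9%), against 19.6% of 32851 windows of all genes and 24.6% of 15056 windows of genes with at least 20 reads. The E-box CACGTG, which Myc can bind and which holds ACGTG on both strands, was in 4 member windows (8.89%), against 7.15% of all windows and 9.72% of windows of genes with at least 20 reads. A match is a run of letters, not a binding site, and windows of a gene can overlap. Shown are the 250 bases before the start for Pygl, Slc16a3 and Pgm2, which were over 2-fold higher at 96 hours, for Pgk1 and Ldha just under it, and for Pdk1, which was lower at 48 hours. Ldha and Pdk1 have a pair of windows each, of which the first is shown. In GRCm38.p6, which is not the build of the files, the places in that order are chr12:70227684-70227933 (minus strand), chr11:120948817-120949066 (plus strand), chr4:99929201-99929450 (plus strand), chrX:106186850-106187099 (plus strand), chr7:46845554-46845803 (plus strand) and chr2:71872974-71873223 (plus strand). Capitals mark ACGTG or its reverse complement, and run together where matches overlap.
Pygl: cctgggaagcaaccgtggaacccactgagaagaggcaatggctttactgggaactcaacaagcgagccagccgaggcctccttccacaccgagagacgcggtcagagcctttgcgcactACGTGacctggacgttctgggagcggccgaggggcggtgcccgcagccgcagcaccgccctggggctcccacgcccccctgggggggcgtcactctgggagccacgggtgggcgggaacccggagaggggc
Slc16a3: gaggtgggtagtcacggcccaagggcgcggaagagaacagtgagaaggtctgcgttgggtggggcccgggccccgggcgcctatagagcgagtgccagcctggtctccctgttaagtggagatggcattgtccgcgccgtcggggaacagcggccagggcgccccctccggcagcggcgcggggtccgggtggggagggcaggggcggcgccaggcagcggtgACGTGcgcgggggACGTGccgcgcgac
Pgm2: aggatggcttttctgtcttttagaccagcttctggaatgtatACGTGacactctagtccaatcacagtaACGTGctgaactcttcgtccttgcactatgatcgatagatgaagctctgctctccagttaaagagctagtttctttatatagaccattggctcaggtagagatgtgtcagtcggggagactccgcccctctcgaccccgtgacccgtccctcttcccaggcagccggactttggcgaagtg
Pgk1: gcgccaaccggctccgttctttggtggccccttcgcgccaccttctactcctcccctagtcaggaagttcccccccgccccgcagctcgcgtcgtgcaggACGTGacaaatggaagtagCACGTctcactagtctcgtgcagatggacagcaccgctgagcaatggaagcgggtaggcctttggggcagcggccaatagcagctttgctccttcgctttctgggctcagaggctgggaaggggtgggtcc
Ldha: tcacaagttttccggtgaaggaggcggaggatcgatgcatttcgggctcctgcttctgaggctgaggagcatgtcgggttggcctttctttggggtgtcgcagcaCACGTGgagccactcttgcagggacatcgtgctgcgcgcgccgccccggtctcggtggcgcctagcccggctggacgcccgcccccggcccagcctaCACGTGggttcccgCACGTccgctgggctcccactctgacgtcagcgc
Pdk1: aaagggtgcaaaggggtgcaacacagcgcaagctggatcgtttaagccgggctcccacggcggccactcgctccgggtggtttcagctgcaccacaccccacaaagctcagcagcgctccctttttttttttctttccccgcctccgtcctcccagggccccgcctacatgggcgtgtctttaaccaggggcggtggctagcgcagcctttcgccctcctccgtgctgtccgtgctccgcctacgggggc
Ldha held 5 matches in these bases, made up of both strands of 2 E-boxes and 1 more. Slc16a3, Pgm2 and Pgk1 held 2 each and Pygl 1. The Pdk1 window held no ACGTG, which says only that these letters are not in it. The form GCGTG, which was not counted, does occur in the Pdk1 bases shown. Pfkp, Eno2 and Ldhb, also over 2-fold higher at 96 hours, had no ACGTG in their 300 base windows, and the second windows of Ldha and Pdk1 held none. The letters were in windows of 9 of the 16 members past the 1.5-fold rule at 96 hours against Dox, and of 10 of the 15 others with a window. Those 10 were Aldoa, Gapdh, Hk2, Pdk3, Pfkm, Pgam1, Pkm, Slc16a1, Slc2a1 and Ugp2, which is a description with no test.

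Other gene sets moved beside these. Of 20 non-glycolytic hypoxia genes, 17 were tested at 48 hours against Dox. By 2-fold 3 were higher and 1 lower, where 2.77% and 2.13% of all genes were. At 96 hours against Dox 12 were higher and 0 lower among 19 tested, where 7.62% and 2.07% of all genes were. Bnip3, a mitophagy receptor gene, had 279, 326, 30.99, 67.02, 244 and 276 RPKM, and Ndrg1 45.4, 85.2, 2.78, 12.4, 49.3 and 69.3 RPKM. Egln3, an oxygen-dependent hydroxylase that marks Hif for decay, had 55.2, 69.2, 6.31, 4.97, 28.2 and 30.5 RPKM. Each of these, like Slc16a3 and Pgk1, was higher in both 96 hour libraries than with Dox or at 48 hours. Myc had 19.4, 8.98, 31.9, 5.84, 14.2 and 4.62 RPKM and Hif1a 28.2, 48.5, 53.5, 41.1, 27.96 and 35.8 RPKM, both highest in the line with Dox, where most members were lowest. Of 14 regulators, Epas1, Egln1, Egln3 and Mlxipl were higher by 2-fold at 96 hours against Dox, and Myc was lower. That is 4 higher and 1 lower, where 7.62% and 2.07% of all genes were. In the line with Dox against KH2, 4 were lower (Egln1, Egln3, Mlxipl and Arrdc4) and 0 higher, where 21.4% and 2.76% of all genes were. Egln1 and Egln3 are also among the 20 hypoxia genes. Whether any of these regulators had a part in the members' levels was not tested. The summed fibroblast markers were 1.21 times higher at 96 hours than with Dox, with 2 of 24 tested higher and 1 lower by 2-fold.

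**Figure D3:**
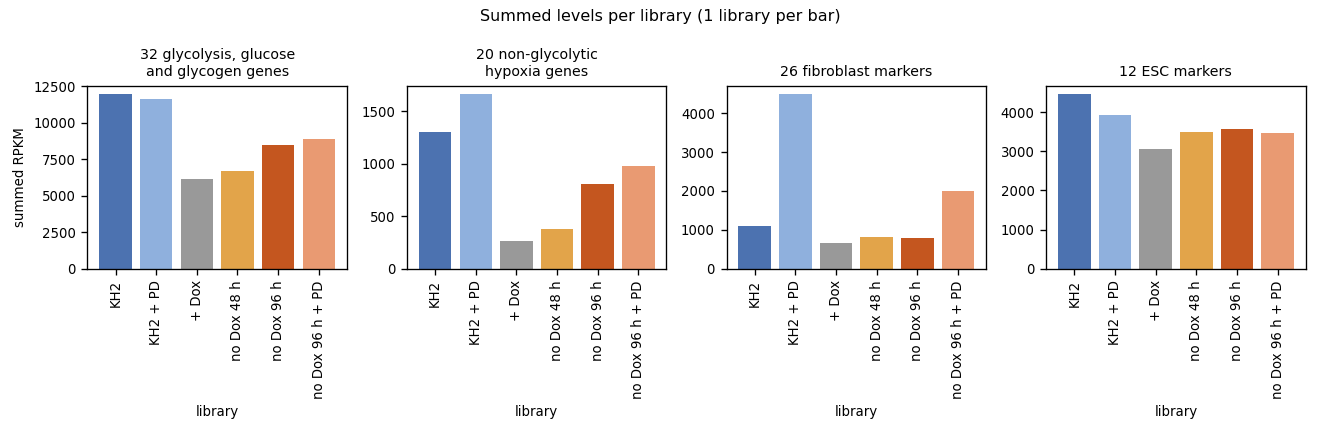
Summed RPKM of the 32 members, 20 non-glycolytic hypoxia genes, 26 fibroblast markers and 12 ESC markers, with 1 bar per library and axes from 0. The members' sum went from 6163 RPKM with Dox to 8481 RPKM at 96 hours, and the fibroblast sum stood apart in the inhibitor libraries.

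The inhibitor in wild-type cells was the first comparison the design names. In treated KH2 cells 3 members were higher by the 2-fold rule and 0 lower, where 3.86% of 12787 genes were higher and 1.22% lower (5.08% either way). By the 1.5-fold rule 8 were higher and 1 lower, against 9.4% and 5.11%. The members' median log2 ratio was 0.09 and that of all genes −0.02.

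The 8 higher genes were Hk1, Eno2, Ldhb, Pfkfb3 and 4 glycogen genes. Hk1 was 2.09-fold higher (95% interval 1.97 to 2.23), Eno2 2.08-fold higher (95% interval 1.78 to 2.45) and Ldhb 1.60-fold higher (95% interval 1.48 to 1.73). Of their isozymes, log2 ratios were −0.17 for Hk2, −0.07 for Eno1 and −0.07 for Ldha. Of the 6 glycogen genes 4 passed the 1.5-fold rule, with Pygl at 2.13-fold higher (95% interval 1.82 to 2.49), Ugp2 at 1.84-fold higher (95% interval 1.61 to 2.10), Gys1 at 1.67-fold higher (95% interval 1.56 to 1.78) and Gbe1 at 1.56-fold higher (95% interval 1.34 to 1.81). Pygb (0.19) and Pgm2 (0.06) did not pass. Pfkfb3 was 1.59-fold higher (95% interval 1.43 to 1.76). The lower gene was Pdk1, 1.68-fold lower (95% interval 1.59 to 1.78). Slc2a1 (−0.49) and Slc2a3 (−0.32) were lower by less than 1.5-fold.

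In Erk KO cells at 96 hours without Dox, treated against untreated, 0 members were higher and 0 lower by the 2-fold rule, where 1.34% of 11920 genes were higher and 0.587% lower (1.93% either way). By the 1.5-fold rule Gbe1 was higher and Pdk1 lower, against 3.7% and 1.81% of all genes (5.51% either way). Gbe1, with 100 and 207 reads, was 2.10-fold higher (95% interval 1.64 to 2.69), and its log2 ratio with the added 0.5 was 0.97. Pdk1 was 1.61-fold lower (95% interval 1.49 to 1.74), where the KH2 pair had 1.68-fold. Eno2 (0.50), Pygl (0.43), Hk1 (0.41), Ugp2 (0.30) and Pfkfb3 (0.29) were positive without passing. The members' median was 0.09 and that of all genes 0.01.

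These pairs share no library. The log2 ratios had the same sign in 23 of 32 members and in 68.9% of 11668 genes, with Pearson r of 0.73 across the members and 0.68 across all genes, as a description over genes that share the same 4 libraries. The difference between the pairs, KH2 minus Erk KO on the log2 scale of read ratios, was 0.65 (0.54 to 0.77) for Hk1, 0.59 (0.46 to 0.72) for Gys1, 0.59 (0.42 to 0.75) for Ldhb and −0.40 (−0.48 to −0.31) for Slc2a1, with 95% intervals of counting error. An edgeR quasi-likelihood test of that difference over all 6 libraries called 0 of 15103 genes and 0 members, with 129 genes and 0 members at an unadjusted p under 0.05, and DESeq2 also called 0, with 30 genes at an unadjusted p under 0.05. That fit takes the 48 and 96 hour libraries as 1 state, and the members differed between those times as given above.

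The 4 libraries of both pairs were then fitted together, with cell state as a block, for a shared effect of the inhibitor. In edgeR's quasi-likelihood F test, adjusted by Benjamini-Hochberg over 14782 genes, 7 members rose and 1 fell, where 6.05% of genes rose and 2.92% fell (8.97% either way). The log2 fold changes with their standard errors (n = 2 pairs) were 0.90 ± 0.18 for Eno2 (edgeR adjusted p = 0.00407), 0.82 ± 0.15 for Gbe1 (adjusted p = 0.00304), 0.81 ± 0.17 for Pygl (adjusted p = 0.00623) and 0.74 ± 0.13 for Hk1 (adjusted p = 0.00194). They were 0.58 ± 0.14 for Ugp2 (edgeR adjusted p = 0.0142), 0.49 ± 0.12 for Pfkfb3 (adjusted p = 0.0158) and 0.44 ± 0.13 for Gys1 (adjusted p = 0.0399). Pdk1, which encodes the kinase that closes pyruvate dehydrogenase, fell by 0.72 ± 0.09 on the log2 scale (edgeR adjusted p = 0.000126), and was lower in both pairs. Ldhb (0.39 ± 0.13), Slc16a3 (0.29 ± 0.11) and Slc2a1 (−0.29 ± 0.10) did not pass, nor did the abundant enzymes, with Pkm at −0.03 ± 0.08, Ldha at 0.00 ± 0.08 and Aldoa at 0.08 ± 0.08. The test has 1 residual degree of freedom and borrows most of its spread from other genes. DESeq2 called Hk1 and Gbe1 higher and Pdk1 lower, where 344 of 14782 genes were higher and 106 lower. Without the block, edgeR called 0 members and 0 of all genes, with 0 members and 270 genes at an unadjusted p under 0.05. An edgeR fit of all 6 libraries took the 48 and 96 hour libraries as 1 state. It called 0 members (6 at an unadjusted p under 0.05), where 103 of 15103 genes were higher and 15 lower. Without the 48 hour library it called 8 members higher and 1 lower, where 1210 of 14940 genes were higher and 740 lower. Without the untreated 96 hour library it called 5 members higher and 0 lower, where 283 of 14864 genes were higher and 81 lower. In the line, that last fit sets the treated 96 hour library against the 48 hour library. Inhibitor and time without Dox cannot be told apart there.

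**Figure D4:**
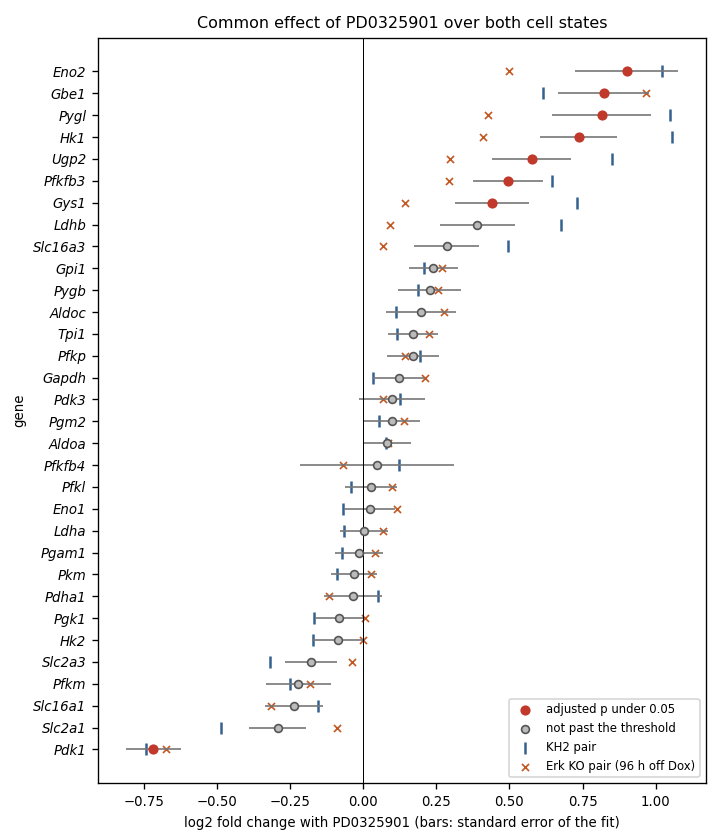
Log2 fold change with PD0325901 for each of the 32 genes in the test over both cell states (points, with the standard error of the fit), and the log2 ratios of RPKM plus 0.5 in the KH2 pair (bars) and the Erk KO pair (crosses). The 8 genes past the threshold are red, 7 to the right of 0 and Pdk1 to the left.

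Fibroblast markers moved with the inhibitor. Their summed level was 4.09 times higher in treated than in untreated KH2 cells and 2.52 times higher in treated Erk KO cells, and 18 of 25 and 16 of 24 tested markers were higher by 2-fold, with Col1a1 at 96.4, 878, 17.2, 17.7, 25.9 and 218 RPKM. The summed ESC markers were 1.13 times lower in treated KH2 cells and 1.02 times lower in treated Erk KO cells. Of the 12 ESC markers, 6 had positive log2 ratios in KH2 (median −0.03) and 5 in Erk KO cells (median −0.005). The part of fibroblast RNA in the levels of Hk1, Eno2, Pygl and the other raised members was not tested. Of the non-glycolytic hypoxia genes 3 of 20 were higher and 0 lower by 2-fold in treated KH2 cells, where 3.86% of all genes were higher, and 9 were higher by 1.5-fold, where 9.4% were. Their median log2 ratio there was 0.52, against −0.02 for all genes. In treated Erk KO cells 2 of 19 were higher by 2-fold, where 1.34% of all genes were, with a median of 0.27 against 0.01. The edgeR test over both pairs called 8 of the 20 higher and 0 lower, where 6.05% of all genes rose. The call with the smallest p was P4ha2, a collagen prolyl hydroxylase subunit, 2.76-fold higher (95% interval 2.58 to 2.95) in KH2 and 2.67-fold higher (95% interval 2.39 to 2.98) in Erk KO cells.

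Isozyme shares, the percent of a step's summed RPKM that a gene supplied, shifted with these changes. Hk1 supplied 36.1%, 57.1%, 24.4%, 40.3%, 47.4% and 54.5% of hexokinase RNA over Hk1 and Hk2, the lowest share with Dox and the highest in treated KH2 cells. Pfkp supplied 36.9%, 41.2%, 37.3%, 37.6%, 53.4% and 55.04% of phosphofructokinase RNA, and passed Pfkl in the 96 hour libraries. Slc16a3 supplied 69.1%, 77.9%, 36.7%, 54.4%, 68.9% and 74.4% of the lactate transporter RNA. Pygl supplied 39.7%, 55.1%, 2.24%, 5.81%, 24.2% and 26.9% of the phosphorylase RNA over Pygl and Pygb, so nearly all of it came from Pygb with Dox. Pdk1 supplied 71.3%, 57.5%, 68.7%, 40.01%, 59.4% and 46.4% of the RNA of Pdk1 and Pdk3, below 50% at 48 hours without Dox and in treated Erk KO cells. Aldoa supplied at least 97.4% of aldolase RNA and Ldha at least 91.3% of lactate dehydrogenase RNA in every library.

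**Figure D5:**
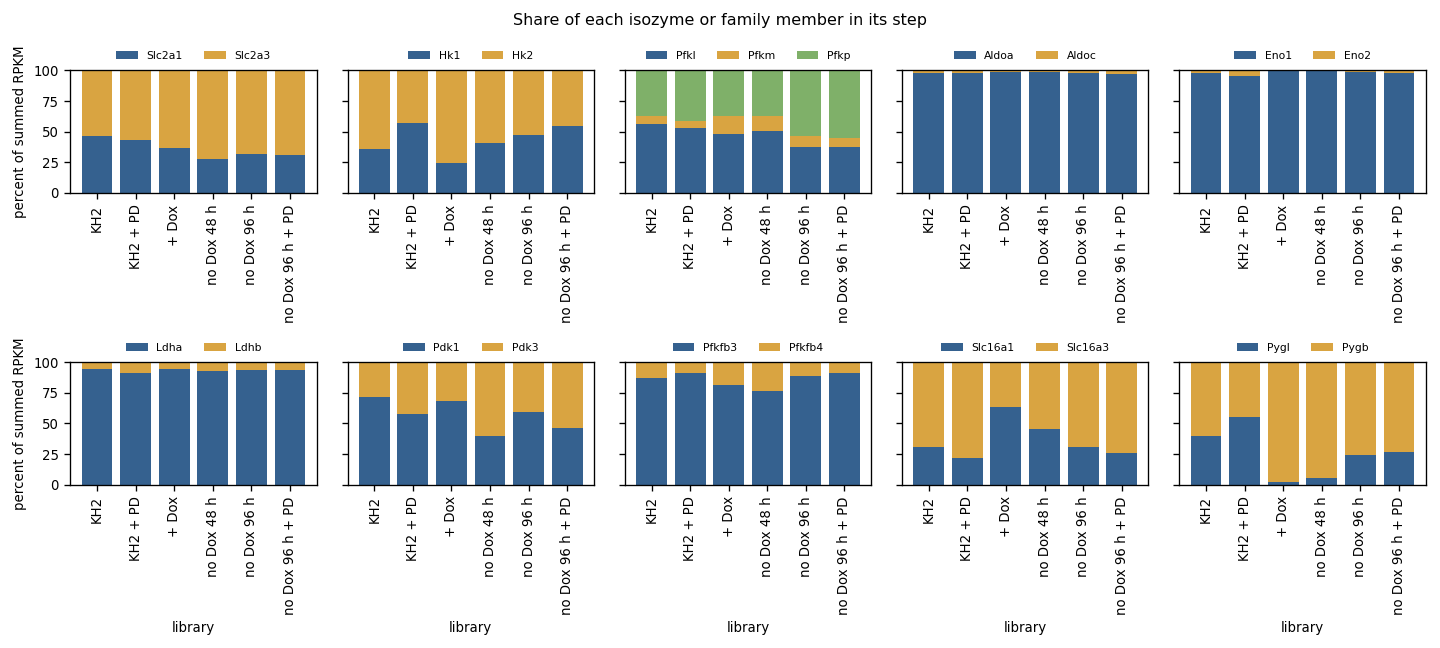
Share of summed RPKM, in percent, supplied by each gene of a step in the 6 libraries (KH2, KH2 with PD0325901, then the line with Dox, without Dox for 48 and 96 hours, and 96 hours with PD0325901). Hexokinase, phosphofructokinase, lactate transport, pyruvate dehydrogenase kinase and phosphorylase shares shifted, while Aldoa and Ldha supplied over 90% of their steps throughout.

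Of 65 other genes of glucose and glycogen metabolism, 62 had reads in at least 1 library. In the line with Dox against KH2, 12 of 44 tested were lower by the 2-fold rule and 0 higher, where 21.4% and 2.76% of all genes were. Their median log2 ratio was −0.74, against −0.37 for all genes. They included Bsg, the chaperone that brings lactate transporters to the membrane, at 432, 702, 159, 171, 239.7 and 292 RPKM, and Ppp1r3b, a subunit that directs a phosphatase to glycogen, with 220 reads in KH2 and 21 in the line. At 48 hours 1 of 37 was higher, the mutase gene Pgam2 with 8 and 23 reads, and 0 lower, where 2.77% and 2.13% of all genes were. At 96 hours against Dox 8 of 43 were higher and 0 lower, where 7.62% and 2.07% of all genes were, with a median of 0.35 against 0.05. They included Pdp2, a phosphatase that reopens pyruvate dehydrogenase, 2.22-fold higher (95% interval 1.84 to 2.69), Gyg, the glycogenin primer of glycogen, 2.58-fold higher (95% interval 2.03 to 3.31), the phosphorylase kinase subunit gene Phka1, 2.44-fold higher (95% interval 1.90 to 3.16), and Ppp1r3b, 5.76-fold higher (95% interval 3.61 to 9.63). At 96 against 48 hours 6 of 43 were higher and 0 lower, where 4.55% and 0.469% of all genes were. In treated KH2 cells 5 of 47 were higher and 1 lower, where 3.86% and 1.22% of all genes were, and in treated Erk KO cells 0 of 44 passed in either direction, where 1.93% did. Emb, another chaperone of lactate transporters, had 57.3, 26.3, 28.98, 16.6, 17.4 and 10.7 RPKM and was 2.17-fold lower (95% interval 1.98 to 2.39) in treated KH2 cells. Stbd1, a glycogen-binding protein gene, was 3.31-fold higher (95% interval 2.35 to 4.75) there, with 44 reads untreated and 145 treated. In the edgeR test over both pairs Bsg, Stbd1, Ppp1r3e and Gaa rose and Emb fell. Of all genes, 6.05% rose and 2.92% fell in that test. Not all of the 62 genes with reads had a value in it.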

How the data were processed

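The authors deposited 1 file per library with the count of uniquely mapped reads per gene, the gene length, the RPKM and the percent of the gene covered by reads, per the file headers. The deposited counts sum to the total in each header, and the deposited RPKM equalled reads per kilobase and 1e6 reads of that total in every gene, within a relative difference of 1e-09. The deposited length differed between files for 41 genes, none of them a member. Per the submitters' processing notes the build was mm9. Aligner and annotation: not given in the sources used here. A gene without a row was set to 0 reads, and libraries were joined by gene ID. Symbols came from the KH2 files or, for 4 libraries without a symbol column, by gene ID from those or RefSeq. Intervals are exact 95% Clopper-Pearson intervals of read shares. They cover counting error only, and the files hold reads, not molecules.

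Ratios and calls followed the rules stated with the results (pseudocount 0.5), over all genes. The shared and difference tests used edgeR 4.0.16 (TMM, 20 reads or more, adjusted p under 0.05), with DESeq2 1.42.0 as an alternative. The shared fit had 1 residual degree of freedom, and the prior added 13.8 (median). The scripts were tested on simulated data. Other alternatives were pseudocounts of 0.1 and 1, TMM and DESeq2 size factors, no filter, and at least 100 reads. All 32 members were named. Genes of other lists were named where past 2-fold, at most 5 per comparison by reads, except Hif1a, named after its values were seen. The members and lists were chosen with earlier results of these data known. Of the genes that check the labels, 1 is not reported here.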

Additional observations from a re-analysis of the deposited data

How the results depend on the processing

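All called log2 ratios of members kept their sign under every pseudocount and scaling tried. By the 2-fold rule, a pseudocount of 0.1 gave 1 member higher with PD0325901 in Erk KO cells (Gbe1), where the main value was 0. TMM scaling and DESeq2 size factors each gave 1 member higher in the line with Dox against KH2 (Pdha1), again against 0. The other 2-fold counts stayed within 1.5 times the main count. The common test of PD0325901 had 7 members higher and 1 lower, where 6.05% and 2.92% of all genes were. DESeq2 gave 2 higher and 1 lower, where 344 and 106 of 14782 genes were. The fit without the state block gave 0 and 0, and the fit of 6 libraries gave 0 and 0. Leaving out 1 library of that fit gave between 0 and 8 members higher and between 0 and 1 lower. With the 48 hour library left out it gave 8 and 1, where 1210 and 740 of 14940 genes were higher and lower. Without the untreated 96 hour library it gave 5 and 0, where 283 and 81 of 14864 genes were. Over these alternatives the adjusted p of Hk1 ran from 5.57e-09 to 0.999996 and that of Pdk1 from 4.7e-09 to 0.999996, and the 8 called genes kept their sign in all 11. The pairing of treated with untreated cells within a state is the block of the main fit, and with 1 library per group there are no replicate numbers to pair further. With about 9 times 1e6 reads per library, genes such as Pygl with 6 reads or Eno2 with 21 in the line with Dox have wide intervals. The spread between cultures was not measured.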
